A study of Mus musculus with 24 samples.

Results

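Emp1, Ecm1, Plaur, Tgm2 and Gda are 5 of the 41388 genes counted in macrophages from mouse diaphragm, the muscle under the lungs, and dura, the outermost covering of the brain. They were chosen by their fold change of diaphragm over dura in these libraries, so their difference between the tissues is given here as a description and was not tested. Ranked by fold change among the 327 genes that passed the test of diaphragm against dura, did not overlap between the tissues and averaged at least 20 CPM (counts in a library scaled to 1000000 in all) in both, they stood at the ranks 2, 3, 4, 7 and 8. The genes at the ranks 1, 5 and 6, Retnla, Cxcl1 and Il1a, met the same conditions and are not among the 5. The lowest-ranked of the 5 was Gda, with a log2 fold change of diaphragm over dura of 3.30 ± 0.42 (SE). The next gene in rank, the interleukin 1 receptor antagonist Il1rn, had 3.28 ± 0.47, with a mean of 700.2 CPM in diaphragm and 72.3 CPM in dura. With no condition on overlap or level, the 5 ranked 100, 149, 188, 207 and 221 by fold change among all genes called higher in diaphragm.

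All samples came from wild-type C57BL/6 mice of 17 weeks at steady state, and the cells were bulk-sorted as macrophages. RAG-1 deficient mice given T cells appear in the title of the series but not in the labels of these samples. The count table gave 16 usable libraries, 7 from diaphragm and 9 from dura. Diaphragm libraries carry only a number, here 1, 2, 3, 6, 7, 8 and 9. Dural libraries carry a number (1, 3 or 4) and a mark (P6, P5 or P4), with 3 libraries per mark. The sources used here do not say what the numbers and marks stand for, and the macrophage subsets C1 to C3 of the labels match no column name. The labels do not say that libraries came from separate animals, so a p-value here covers the spread among these libraries alone, and that spread may be technical.

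The 5 genes act at the cell surface, in the matrix and in purine breakdown. Plaur is the receptor that holds urokinase at the cell surface, where urokinase turns plasminogen into plasmin, a protease that breaks down fibrin and matrix. Tgm2 encodes transglutaminase 2, an enzyme that cross-links proteins, binds fibronectin outside the cell and is used as a marker of alternatively activated macrophages. Ecm1 is a secreted glycoprotein that binds perlecan and other matrix proteins, and Emp1 is a small membrane protein of the PMP22 family. Gda, guanine deaminase, converts guanine to xanthine, on the way to uric acid.

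In the GRCm38 annotation the genes lie on 5 chromosomes. Emp1 (ENSMUSG00000030208) spans chr6:135362545-135383173 on the plus strand, and Plaur (ENSMUSG00000046223) spans chr7:24462484-24475968 on the plus strand. Ecm1 (ENSMUSG00000028108) spans chr3:95734147-95739569, Tgm2 (ENSMUSG00000037820) chr2:158116402-158146436 and Gda (ENSMUSG00000058624) chr19:21391307-21473445, all on the minus strand. The counts are of annotated exons. The kit does not mark strand, and Tgm2 shares 370 exon bases with Rprd1b on the opposite strand, so reads there cannot be told apart. Rprd1b itself had 4173 counts over the diaphragm libraries and 4040 over the dural libraries.

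The promoters are shown because the genes are high in the same 7 libraries, so that their start regions can be set side by side. RefSeq windows of the 250 bases before a transcription start (GRCm38.p6) were found for 4 of the 5 genes, all but Tgm2, and are read 5′ to 3′ along the gene. Capitals mark matches to motifs searched on both strands.
Emp1 promoter, chr6:135362681-135362930, plus strand: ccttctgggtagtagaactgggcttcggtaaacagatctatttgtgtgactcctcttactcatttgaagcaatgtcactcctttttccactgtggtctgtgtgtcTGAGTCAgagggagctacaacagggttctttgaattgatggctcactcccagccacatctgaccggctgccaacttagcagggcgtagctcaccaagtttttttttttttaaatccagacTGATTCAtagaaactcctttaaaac
Ecm1 promoter, chr3:95739570-95739819, minus strand: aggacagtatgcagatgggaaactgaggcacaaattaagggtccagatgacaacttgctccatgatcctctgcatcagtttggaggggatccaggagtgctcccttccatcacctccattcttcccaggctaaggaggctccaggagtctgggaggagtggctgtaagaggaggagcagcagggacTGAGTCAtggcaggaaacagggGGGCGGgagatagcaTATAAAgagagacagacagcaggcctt
Plaur promoter, chr7:24462233-24462482, plus strand: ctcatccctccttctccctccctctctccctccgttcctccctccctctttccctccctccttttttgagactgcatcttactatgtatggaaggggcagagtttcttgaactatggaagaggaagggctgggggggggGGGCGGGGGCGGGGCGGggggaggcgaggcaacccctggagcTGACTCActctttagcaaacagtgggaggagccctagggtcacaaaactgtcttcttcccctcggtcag
Gda promoter, chr19:21472662-21472911, minus strand: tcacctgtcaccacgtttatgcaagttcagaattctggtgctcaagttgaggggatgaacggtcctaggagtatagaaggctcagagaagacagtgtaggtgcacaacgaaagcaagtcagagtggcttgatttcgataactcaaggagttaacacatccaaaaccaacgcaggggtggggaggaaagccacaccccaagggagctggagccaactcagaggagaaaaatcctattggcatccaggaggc
Of the motifs searched, TGANTCA is the AP-1 motif. TGACG is the core of the CRE motif. GGGCGG is known as the GC box. TATAAA is the box of that name near many starts. GGGNNTTCC is an NF-kappaB motif. GGAAGTG is an ETS motif. None of these motifs overlaps another in the 4 windows, apart from neighbouring GC boxes. The AP-1 motif, which Fos and Jun proteins bind, matched in Emp1 at -145 (TGAGTCA) and -25 (TGATTCA), in Ecm1 at -64 (TGAGTCA) and in Plaur at -69 (TGACTCA), with positions counted back from the start. Of 32851 RefSeq promoter windows of the same length, 6.75% hold it. Ecm1 also had a TATA box at -27, a motif in 12.4% of the windows, and a GC box at -42. Plaur had GC boxes at -111, -105 and -100 that overlap or adjoin each other, a motif in 32.7% of the windows. No searched motif matched in Gda. The TGACG, NF-kappaB and ETS motifs, held by 17.8%, 4.98% and 8.55% of the windows, matched in none of the 4. The GC content was 44.4% in Emp1, 54.0% in Ecm1, 59.6% in Plaur and 50% in Gda, against a median of 52.4% over all windows. A match is a description of these letters, not a bound site. RefSeq gives Emp1 a second start, whose window, chr6:135367243-135367492, held no match and is not shown. The Emp1 and Gda windows lie downstream of the first GENCODE start of their genes.

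Emp1 had the highest fold change of the 5. It reached 1256 and 853 CPM in diaphragm libraries 1 and 7, 467.9 and 387.3 CPM in 2 and 8, and 603, 659 and 508.6 CPM in 3, 6 and 9. In dura it was lowest at 13.3 CPM, had a median of 24.2 CPM and was highest at 40.2 CPM. Libraries 1 and 7 stood highest, and every diaphragm library lay far above every dural one. The means were 676.4 ± 296.7 CPM in diaphragm (SD, n = 7) and 26.4 ± 8.85 CPM in dura (SD, n = 9), a log2 fold change of 4.68 ± 0.28 (SE). The lowest diaphragm library was 9.64 times the highest dural library. Among the RNAs of a diaphragm library, Emp1 ranked between 82 and 373 by counts, and among those of a dural library between 4169 and 7371. In bulk samples, fewer cells of a type and less RNA per cell cannot be told apart.

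Ecm1, the matrix glycoprotein, had 839.3 and 848.9 CPM in diaphragm libraries 1 and 7, 450.9 and 506.4 CPM in 2 and 8, and 909.9, 725.3 and 732.6 CPM in 3, 6 and 9. In dura its lowest value was 21.8 CPM, its median 32.9 CPM and its highest 104.9 CPM. Libraries 2 and 8 were the low ones within diaphragm, and the tissues did not overlap. The means were 716.2 ± 175.6 CPM in diaphragm (SD, n = 7) and 49.4 ± 31.6 CPM in dura (SD, n = 9), a log2 fold change of 3.86 ± 0.36 (SE).

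Plaur, the urokinase receptor, had 157.7 and 118.4 CPM in diaphragm libraries 1 and 7, 138.9 and 119.6 CPM in 2 and 8, and 429.0, 447.3 and 381.3 CPM in 3, 6 and 9. In dura its lowest value was 5.33 CPM, its median 13.3 CPM and its highest 61.6 CPM. Libraries 3, 6 and 9 stood apart above the other 4 diaphragm libraries. The gap between tissues was the smallest of the 5 genes, with the lowest diaphragm library at 1.92 times the highest dural one. The means were 256.0 ± 154.5 CPM in diaphragm (SD, n = 7) and 22.9 ± 20.3 CPM in dura (SD, n = 9), a log2 fold change of 3.48 ± 0.54 (SE).

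Tgm2, the protein cross-linking enzyme, had 334.0 and 343.7 CPM in diaphragm libraries 1 and 7, 680.7 and 546.5 CPM in 2 and 8, and 266.1, 212.1 and 276.5 CPM in 3, 6 and 9. In dura its lowest value was 20.2 CPM, its median 34.7 CPM and its highest 65.9 CPM. Its highest diaphragm libraries were 2 and 8, which were the lowest for Emp1 and Ecm1. The means were 379.9 ± 170.0 CPM in diaphragm (SD, n = 7) and 36.8 ± 13.6 CPM in dura (SD, n = 9), a log2 fold change of 3.37 ± 0.28 (SE).

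Gda, guanine deaminase, was the most even of the 5 across diaphragm. It had 230.8 and 274.3 CPM in diaphragm libraries 1 and 7, 214.9 and 258.1 CPM in 2 and 8, and 275.1, 255.3 and 277.4 CPM in 3, 6 and 9. In dura its lowest value was 6.40 CPM, its median 13.5 CPM and its highest 54.4 CPM. The highest diaphragm library was 1.29 times the lowest, whereas in dura the highest was 8.51 times the lowest. The means were 255.1 ± 24.1 CPM in diaphragm (SD, n = 7) and 25.9 ± 20.9 CPM in dura (SD, n = 9), a log2 fold change of 3.30 ± 0.42 (SE).

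**Figure D1:**
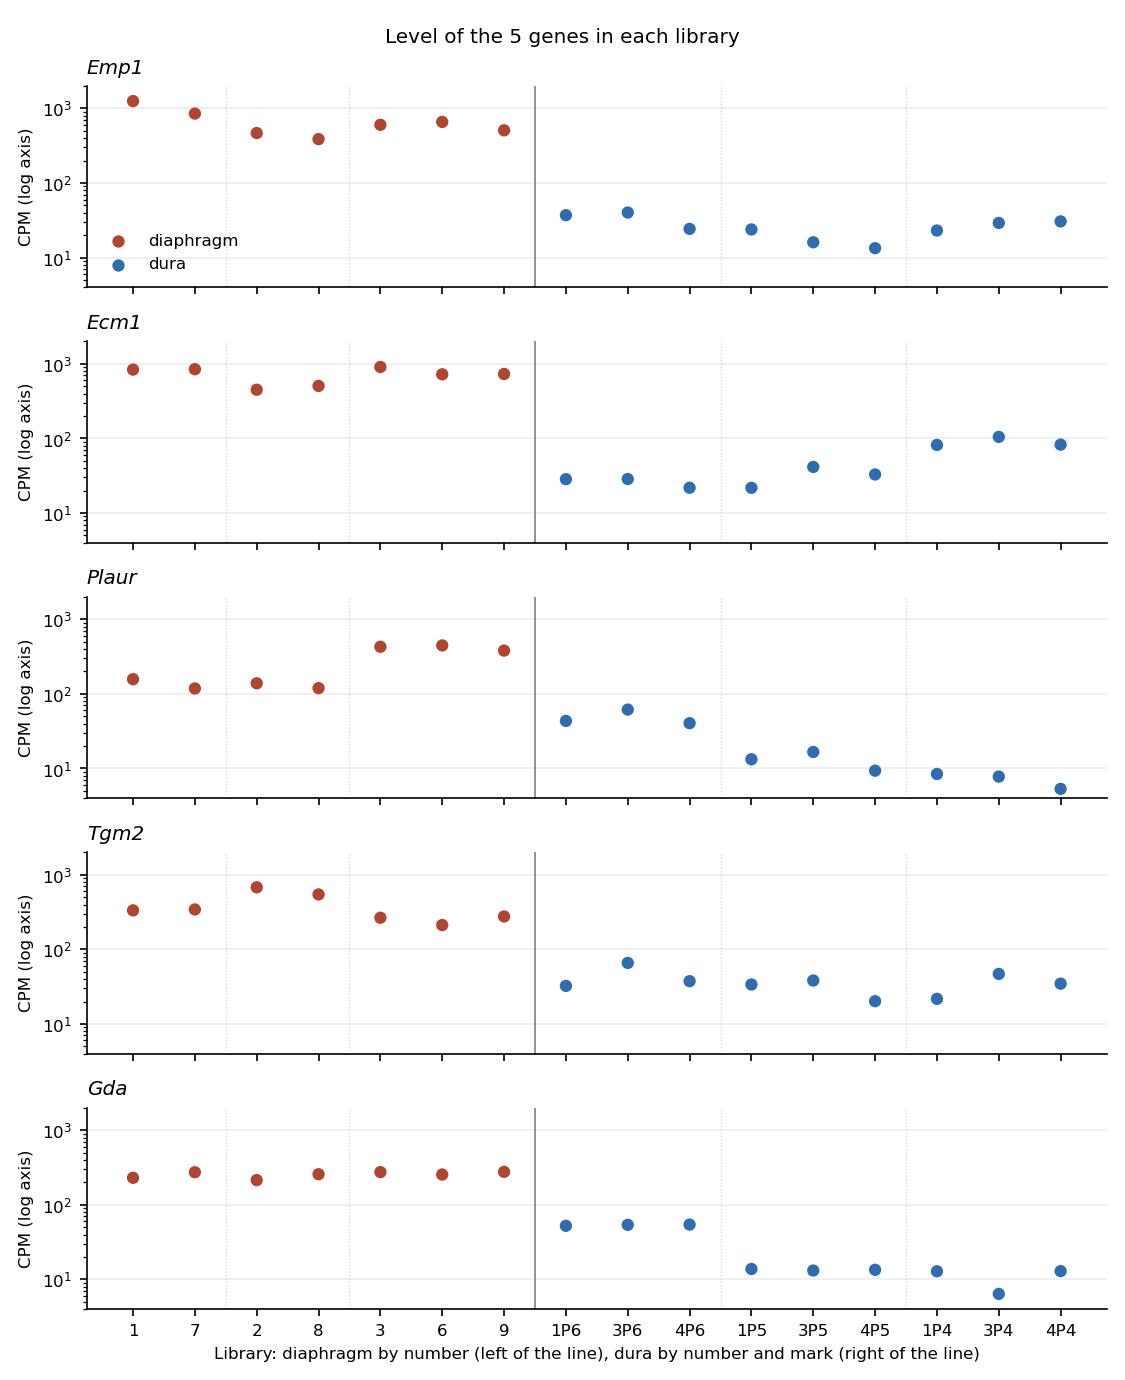
CPM on a log axis in each of the 16 libraries, one panel per gene, diaphragm libraries on the left and dural libraries on the right by mark. In each panel every diaphragm library lies above every dural library, with the narrowest gap in Plaur, where the lowest diaphragm library is 1.92 times the highest dural library.

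All 5 genes passed the filter on low counts. Over all genes tested, 15.3% were called higher in diaphragm and 4.42% had every diaphragm library above every dural one. As the genes were chosen for this difference, nothing is read from their own count against these shares. Emp1 had 6474 to 27575 raw counts in a diaphragm library and 202 to 550 in a dural library. The lowest raw count of any of the 5 in a library was 2084 in diaphragm (Tgm2) and 96 in dura (Plaur). Repeat runs of 6 diaphragm libraries differed by 0.0791% to 5.53% in CPM over the 5 genes, far less than the libraries differed from one another for Emp1, Ecm1, Plaur and Tgm2. In Gda the repeat runs differed by up to 5.09%, against a coefficient of variation of 9.43% over the 7 diaphragm libraries.

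Levels of different genes were compared per kilobase of annotated exon. In diaphragm, Ecm1 was highest at 284 ± 69.7 CPM per kilobase, followed by Emp1 at 114 ± 49.98, Plaur at 97.8 ± 59.0, Tgm2 at 82.5 ± 36.9 and Gda at 40.9 ± 3.86 CPM per kilobase (SD, n = 7 each). Emp1, Plaur and Tgm2 lay within each other's spread. In dura, Ecm1 was again highest at 19.6 ± 12.52 CPM per kilobase, followed by Plaur at 8.76 ± 7.75, Tgm2 at 7.99 ± 2.96, Emp1 at 4.44 ± 1.49 and Gda at 4.16 ± 3.35 CPM per kilobase (SD, n = 9 each). Neighbours in the dural order overlapped in their spread, Ecm1 and Plaur included. Emp1, next to Ecm1 in the diaphragm order, stood below Plaur and Tgm2 in the dural order.

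The marks P6, P5 and P4 within dura played no part in choosing the genes, and were tested with edgeR's quasi-likelihood test over all 13239 genes measured there, calling a gene where its Benjamini-Hochberg adjusted p was under 0.05. The 5 genes did not follow 1 order across the marks. Plaur and Gda were highest in P6, Ecm1 was highest in P4, Emp1 was higher in P6 than in P5, and Tgm2 passed no test.

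Plaur had 43.4, 61.6 and 40.5 CPM in the P6 libraries of numbers 1, 3 and 4, 13.3, 16.6 and 9.34 CPM in P5, and 8.43, 7.78 and 5.33 CPM in P4. The 3 marks did not overlap, with P6 highest and P4 lowest. P6 against P4 gave a log2 fold change of 2.77 ± 0.26 (SE; edgeR adjusted p = 7.22e-06), and P6 against P5 gave 1.90 ± 0.25 (edgeR adjusted p = 0.000236). P5 against P4 gave 0.87 ± 0.26 and missed the threshold (edgeR adjusted p = 0.0629). That last comparison was called without library 4P5 (edgeR adjusted p = 0.0336), with DESeq2 (adjusted p = 0.0142), with no filter on low counts in edgeR (adjusted p = 0.000342) and with the library number as a replicate block in edgeR (adjusted p = 0.00632).

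Gda had 52.4, 54.0 and 54.4 CPM in the P6 libraries of numbers 1, 3 and 4, 13.8, 13.2 and 13.5 CPM in P5, and 12.9, 6.40 and 12.9 CPM in P4. The P6 libraries agreed closely with one another and stood clear of all others, and P4 lay below P5 in all 3 numbers. The log2 fold change was 2.33 ± 0.22 for P6 against P4 (SE; edgeR adjusted p = 8.23e-06) and 1.99 ± 0.22 for P6 against P5 (edgeR adjusted p = 6.25e-05). P5 against P4 was 0.34 ± 0.22 (edgeR adjusted p = 0.468). Even the highest P6 library, at 54.4 CPM, lay below the lowest diaphragm library, at 214.9 CPM.

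Ecm1 ran the other way. It had 28.4, 28.5 and 21.8 CPM in the P6 libraries of numbers 1, 3 and 4, 21.8, 41.5 and 32.9 CPM in P5, and 81.9, 104.9 and 82.7 CPM in P4. All P4 libraries lay above all others, while P6 and P5 overlapped. Ecm1 fell in P6 against P4 by a log2 fold change of -1.77 ± 0.21 (SE; edgeR adjusted p = 4.53e-05) and in P5 against P4 by -1.48 ± 0.20 (edgeR adjusted p = 0.000967). P6 against P5 was -0.29 ± 0.21 (edgeR adjusted p = 0.401).

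Emp1 had 37.0, 40.2 and 24.2 CPM in the P6 libraries of numbers 1, 3 and 4, 23.8, 16.02 and 13.3 CPM in P5, and 23.0, 29.1 and 30.5 CPM in P4. The P6 and P5 libraries did not overlap, by a narrow margin, and P4 overlapped with both. P6 against P5 gave a log2 fold change of 0.94 ± 0.24 (SE; edgeR adjusted p = 0.0169). This call was lost in edgeR without library 3P6 (adjusted p = 0.0717), 3P5 (adjusted p = 0.0737) or 4P5 (adjusted p = 0.0767). P6 against P4 gave 0.30 ± 0.23 (edgeR adjusted p = 0.367). P5 against P4 gave -0.65 ± 0.24 (edgeR adjusted p = 0.142), which was called without library 1P5 (edgeR adjusted p = 0.0479) and with no filter on low counts (edgeR adjusted p = 0.00893).

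Tgm2 had 32.4, 65.9 and 37.5 CPM in the P6 libraries of numbers 1, 3 and 4, 33.8, 38.3 and 20.2 CPM in P5, and 21.7, 46.9 and 34.7 CPM in P4. Number 3 was highest within each mark, and the marks overlapped. The log2 fold changes were 0.40 ± 0.32 for P6 against P4 (SE; edgeR adjusted p = 0.385), -0.18 ± 0.32 for P5 against P4 (edgeR adjusted p = 0.846) and 0.57 ± 0.32 for P6 against P5 (edgeR adjusted p = 0.275). P6 against P5 was called with no filter on low counts (edgeR adjusted p = 0.00455).

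**Figure D2:**
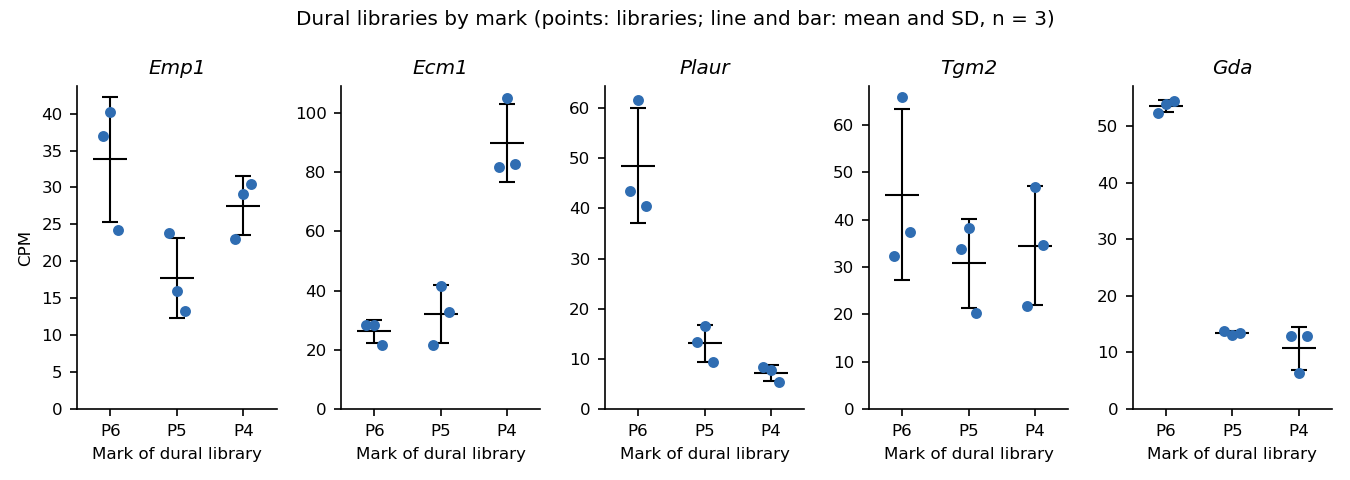
CPM of each gene in the dural libraries by mark, with P6, P5 and P4 from left to right, a point per library and the mean with its SD (n = 3 each). Plaur and Gda are highest in P6, at means of 48.5 and 53.6 CPM, and Ecm1 is highest in P4, at 89.8 CPM, while Tgm2 overlaps across the marks.

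Counted together, 3 of the 5 genes were called in P6 against P4, where 33.3% of all genes tested were called. By direction, 2 rose (16% of all genes did) and 1 fell (17.3%). In P5 against P4, 1 of 5 was called, against 7.35% of all genes, and it fell (4.26% of all genes fell and 3.09% rose). In P6 against P5, 3 of 5 were called, against 17.4% of all genes, and all 3 rose (8.38% of all genes rose and 8.98% fell). The libraries did not overlap for 3 of the 5 genes in each of these comparisons, against 46.6% of all genes in P6 against P4, 25.9% in P5 against P4 and 36.0% in P6 against P5. With 5 genes, these counts are a description. Summed markers of other cells moved with the marks. Ccr2, a chemokine receptor of classical monocytes, stood at 1460 to 1642 CPM in P6, 248.4 to 278.4 CPM in P5 and 33.3 to 103.9 CPM in P4, the same order as Plaur. The other 6 classical monocyte markers summed to 19.0 to 30.9 CPM in P6, 2.71 to 7.93 CPM in P5 and 11.4 to 31.0 CPM in P4, so that P6 and P4 overlapped. The 10 fibroblast markers summed to 240.3 to 385.3 CPM in P6, 569.9 to 763 CPM in P5 and 2033 to 3697 CPM in P4, with P4 highest as in Ecm1. The part of these cells in the differences was not tested.

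Within diaphragm, the genes peaked in different libraries. Emp1 was highest in libraries 1 and 7, Tgm2 in 2 and 8, and Plaur in 3, 6 and 9. Ecm1 was low in 2 and 8, and Gda was nearly level. Marker genes of other cells also differed between these libraries. Fibroblast markers summed to 15900 CPM in library 1 and 7729 CPM in library 7, against 300.5 to 840.5 CPM in the other 5. Endothelial markers summed to 3102 CPM in library 1 and 2936 CPM in library 7, against 46.0 to 615 CPM in the others. Ccr2 stood at 806.7, 1045 and 1035 CPM in libraries 3, 6 and 9, against 19.7 to 129.0 CPM in the other 4. The other 6 classical monocyte markers did not split in this way, with sums of 112.6 to 185.3 CPM in libraries 3, 6 and 9 and 107.3 to 142.5 CPM in the other 4. Ccr7, the most abundant of the 6 markers of conventional dendritic cells, stood at 209.4 to 288.9 CPM in libraries 3, 6 and 9, against 0 to 43.1 CPM in the others, and the remaining 5 summed to 92.4 to 114.6 CPM against 46.0 to 56.2 CPM. The 12 markers of large peritoneal macrophages ran the opposite way, with 154.2 to 214.2 CPM in libraries 3, 6 and 9, against 1276 to 1869 CPM in the other 4, and without Cxcl13, the most abundant, with 141.1 to 188.1 CPM against at least 646.2 CPM. The part of these cells in the levels of the 5 genes was not tested.

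Diaphragm libraries 2, 8, 3, 6 and 9 had fibroblast sums of 532.3, 840.5, 767.5, 300.5 and 388.7 CPM. In the same order, Emp1 stood at 467.9, 387.3, 603, 659 and 508.6 CPM. Ecm1 stood at 450.9, 506.4, 909.9, 725.3 and 732.6 CPM. The part of fibroblast RNA in these levels was not tested. Without libraries 1 and 7 the log2 fold change of diaphragm over dura was 4.32 for Emp1, 3.76 for Ecm1, 3.73 for Plaur, 3.43 for Tgm2 and 3.31 for Gda. The summed markers of macrophages were at 16790 to 25700 CPM in diaphragm and 19180 to 22940 CPM in dura. Skeletal muscle markers summed to 138.9 to 330.4 CPM in diaphragm and 4.08 to 16.3 CPM in dura. Of the 10 neutrophil markers, Csf3r made up most of the sum, at 32.8 to 64.8 CPM in diaphragm and 59.8 to 88.3 CPM in dura. The other 9 summed to 0.0456 to 13.99 CPM in diaphragm and 0.571 to 27.1 CPM in dura, with Ly6g, Camp and Ngp at 0 in diaphragm and Cxcr2 at up to 13.8 CPM there.

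**Figure D3:**
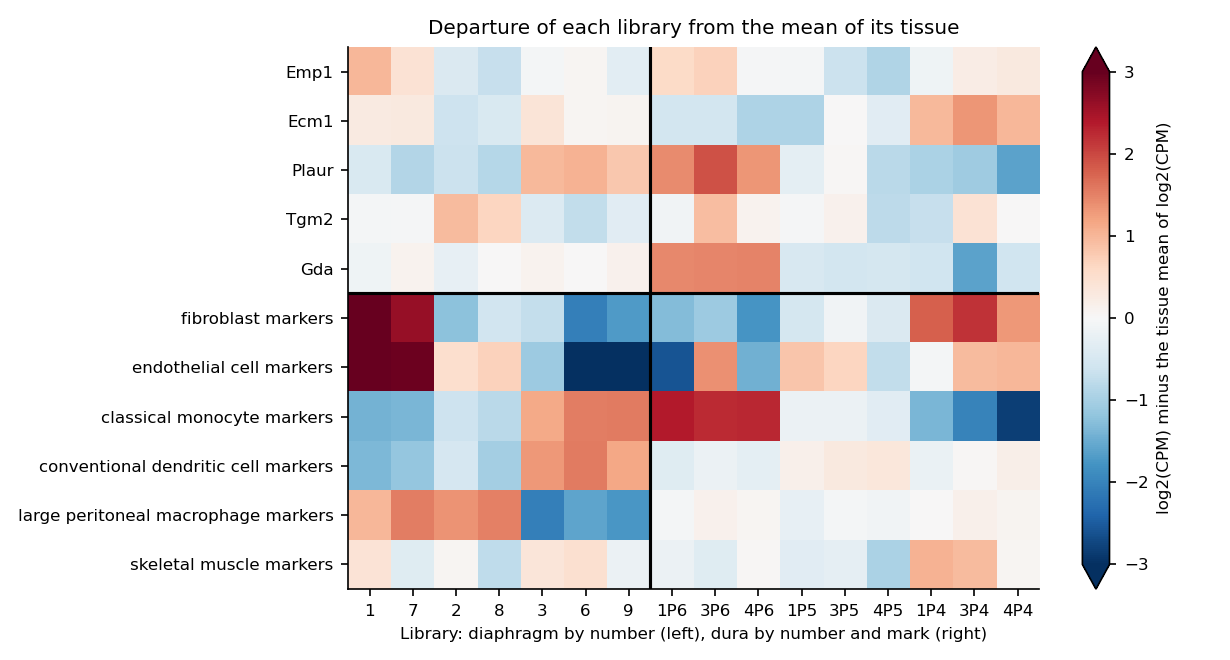
Difference of log2(CPM) in each library from the mean of its own tissue, for the 5 genes (upper rows) and summed cell-type markers (lower rows), with diaphragm libraries left of the line and dural libraries right of it. Plaur is above its tissue mean in diaphragm 3, 6 and 9 and in dural P6, as is the classical monocyte sum, most of which is Ccr2 there, and Emp1 and the fibroblast markers are highest in diaphragm 1.

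Pearson correlations of log2(CPM + 1) between the 5 genes describe the same pattern, with no test. Over all 16 libraries they ran from 0.76 (Ecm1 and Plaur) to 0.95 (Plaur and Gda), where the difference between tissues is shared by construction. Over the 7 diaphragm libraries the highest was 0.70, for Emp1 and Ecm1, and Tgm2 was negative with the others, at -0.82 with Ecm1 and -0.79 with Plaur. Over the 9 dural libraries, Plaur and Gda stood at 0.92, and Ecm1 was negative with Plaur (-0.72) and with Gda (-0.69). Emp1 and Ecm1, the closest pair in diaphragm, stood at 0.05 in dura.

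The genes whose pattern over the 16 libraries was most like each of the 5, among 6923 compared, differed by gene. For Plaur they were Vim, an intermediate filament (r = 0.990), Samsn1, an adaptor protein (0.988), and Tnf, the cytokine (0.988). These stayed close after each tissue was centred on its own mean, at 0.967, 0.967 and 0.949. For Gda they included the chaperone Hspa1b (0.984, and 0.899 when centred) and the adhesion receptor Adgre5 (0.980 and 0.893). For Ecm1 they were the annexin Anxa6 (0.980 and 0.769), Dpysl3 (0.973 and 0.688) and the adducin Add3 (0.969 and 0.854). For Tgm2 they were the cytokine Il1a (0.968 and 0.668), Arf2 (0.967 and 0.591) and the interferon-inducible Ifi205 (0.962 and 0.606). For Emp1 they included the muscle genes Mb, myoglobin (0.981 and 0.447), and Tnnt3, a troponin (0.979 and 0.386), besides Mamdc2 (0.979 and 0.412). The correlations of Emp1 dropped further on centring than those of the other 4 genes.

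Genes of the pathways around the 5 were compared between diaphragm and dura with edgeR over all 13136 genes tested, of which 26.4% were called, 15.3% higher and 11.2% lower in diaphragm. Over all of them the median log2 fold change was 0.01. With another scaling of the libraries the balance of calls moved. Of all calls, 57.8% were higher in diaphragm, against 39.0% where libraries were scaled by their totals alone and 45.7% where upper quartiles were used.

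Of 17 genes of plasminogen activation, the pathway of Plaur, 9 rose in diaphragm and none fell in the main fit, with a median log2 fold change of 0.92. Without diaphragm libraries 1 and 7, 2 genes of this list were called lower in diaphragm. With DESeq2, and in edgeR without diaphragm library 1 or dural library 1P5, 1 gene was called lower. S100a10, which with Anxa2 forms a plasminogen-binding complex at the cell surface, averaged 346.8 ± 148 CPM in diaphragm and 54.4 ± 34.3 CPM in dura (SD, n = 7 and 9). Its log2 fold change was 2.67 ± 0.37 (SE; edgeR adjusted p = 6.14e-05). Anxa2 averaged 511.1 ± 290.9 CPM in diaphragm and 95.7 ± 45.1 CPM in dura, a log2 change of 2.42 ± 0.37 (edgeR adjusted p = 0.00014). Both genes were highest in diaphragm libraries 3, 6 and 9, as was Plaur, and both rose in dural P6 against P4, by log2 fold changes of 1.75 (edgeR adjusted p = 3.34e-06) and 0.92 (edgeR adjusted p = 0.000751). In P5 against P4, S100a10 was not called (0.21, edgeR adjusted p = 0.503). Anxa2 was called lower there (-0.58, edgeR adjusted p = 0.0469), a call lost in 8 of 17 alternatives.

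The ligand of the receptor, urokinase (Plau), also rose. It averaged 340.2 ± 55.3 CPM in diaphragm and 238.6 ± 42.0 CPM in dura, a log2 fold change of 0.51 ± 0.12 (SE; edgeR adjusted p = 0.00487). It was not called with dural libraries summed per number (edgeR adjusted p = 0.078). Plau, Lrp1 and Itgb2 are named outside the naming rule, after their values were seen. Serpinb2, an inhibitor of urokinase, reached 12.6 CPM in diaphragm library 1 and 44.0 CPM in library 7, against 1.21 to 3.98 CPM in the other 5, and was at 0 in 8 of the 9 dural libraries. Its call was lost with dural libraries summed per number (edgeR adjusted p = 0.052). Plasminogen itself, Plg, which the liver makes for the blood, stood at 4.79 to 12.1 CPM in diaphragm and at 0 in 8 dural libraries. The 7 hepatocyte markers other than Ttr summed to 232.6 to 672.4 CPM in diaphragm and 0.125 to 2.26 CPM in dura. Ttr, the carrier protein transthyretin, reached 2995 CPM in dural library 1P6 and at most 23.7 CPM in diaphragm. The part of hepatocyte RNA in the Plg reads was not tested. Serpinb2 and Plg are among the 9 called genes, but passed the filter on low counts through diaphragm alone, so that their calls add nothing to their levels. The clearance receptor Lrp1, at 0.84 ± 0.14 (edgeR adjusted p = 0.000235), and the integrin chain Itgb2, at 0.92 ± 0.19 (edgeR adjusted p = 0.00171), were also called higher.

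Of the 8 partners and substrates of transglutaminase 2, 6 rose in diaphragm and none fell, with a median log2 fold change of 1.06. Itgav, Itgb3 and Lrp1 are in both this list and that of plasminogen activation, and Lrp1 was called. Fn1, fibronectin, had 1001 and 1733 CPM in diaphragm libraries 1 and 7, 224.2 and 317.2 CPM in 2 and 8, and 1805, 1766 and 1274 CPM in 3, 6 and 9, and 13.8 to 365.8 CPM in dura. It was low where Tgm2 was highest. Its log2 fold change of diaphragm over dura was 3.78 ± 0.65 (SE; edgeR adjusted p = 0.000421). The syndecan Sdc4, a co-receptor for matrix, averaged 1528 ± 555 CPM in diaphragm and 609.6 ± 113.5 CPM in dura (log2 fold change 1.33 ± 0.19, edgeR adjusted p = 8.7e-05). Mfge8, a bridge between dying cells and integrins, averaged 91.0 ± 48.3 CPM in diaphragm and 43.0 ± 7.86 CPM in dura (log2 fold change 1.08 ± 0.26, edgeR adjusted p = 0.0047), and lost its call with dural libraries summed per number (edgeR adjusted p = 0.163). The receptor Adgrg1 had 55.7 and 50.9 CPM in diaphragm libraries 1 and 7 and 4.99 to 24.1 CPM in the others, with 1.09 to 12.1 CPM in dura (log2 fold change 2.18 ± 0.58, edgeR adjusted p = 0.0102). Without libraries 1 and 7, which held the most fibroblast and endothelial RNA, its edgeR adjusted p was 0.0942. The call of Adgrg1 was also lost with limma-voom (adjusted p = 0.0824) and with dural libraries summed per number (edgeR adjusted p = 0.161).

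Of the 8 other genes of the transglutaminase family, 2 had enough counts to be tested, and neither was called in the main fit. With DESeq2, and in edgeR without diaphragm libraries 1 and 7, 1 gene of this list was called higher in diaphragm. F13a1, the transglutaminase that cross-links fibrin, averaged 1559 ± 824.2 CPM in diaphragm and 1901 ± 946.2 CPM in dura, a log2 fold change of -0.29 ± 0.39 (SE; edgeR adjusted p = 0.627). Tgm1 had 0.78 ± 0.31 (edgeR adjusted p = 0.0718). Tgm5 and Epb42 had no counts in diaphragm. Within dura F13a1 fell in P6 against P4, by a log2 change of -1.95 (edgeR adjusted p = 1.31e-07), a comparison in which Tgm2 was not called.

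Of the 3 relatives of Emp1, 1 rose. Emp3 averaged 338.1 ± 80.1 CPM in diaphragm and 178.3 ± 49.8 CPM in dura, a log2 fold change of 0.92 ± 0.18 (SE; edgeR adjusted p = 0.00115). Pmp22, the myelin protein that names the family, averaged 418.1 ± 132.5 CPM in diaphragm and 304.0 ± 120.4 CPM in dura (log2 fold change 0.46 ± 0.27, edgeR adjusted p = 0.225). Emp2 averaged 11.5 ± 14.96 CPM in diaphragm and 7.36 ± 3.65 CPM in dura (log2 fold change 0.65 ± 0.68, edgeR adjusted p = 0.519). Within dura, Emp3 rose in P6 against P4 (log2 fold change 0.82, edgeR adjusted p = 0.000313) and Pmp22 fell (log2 fold change -1.45, edgeR adjusted p = 5.55e-07).

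Of 4 binding partners of the ECM1 protein, 1 was called higher in diaphragm, and the median log2 fold change was -0.02. Without diaphragm libraries 1 and 7, none was called higher and 1 was called lower. Hspg2, perlecan, had 500.1 and 467.2 CPM in diaphragm libraries 1 and 7, 9.37 to 80.8 CPM in the other 5, and 9.08 to 80.4 CPM in dura. It was called (log2 fold change 2.34 ± 0.79, edgeR adjusted p = 0.0368), and without libraries 1 and 7 the edgeR adjusted p was 0.860. It was also lost in 8 of the 16 fits that left out 1 library (edgeR adjusted p 0.0575 to 0.105). Within dura all 4 partners fell in P6 against P4, as Ecm1 did. Their log2 fold changes were -3.61 for fibulin Fbln1 (edgeR adjusted p = 2.39e-06), -2.36 for Hspg2 (edgeR adjusted p = 4.14e-05), -1.40 for the protease Mmp9 (edgeR adjusted p = 4.39e-05) and -0.71 for progranulin, Grn (edgeR adjusted p = 2.33e-06). In P5 against P4 Ecm1 was also called lower. So were Fbln1 (log2 fold change -2.16, edgeR adjusted p = 0.00055) and Hspg2 (-1.98, edgeR adjusted p = 0.000841). Mmp9 (0.32, edgeR adjusted p = 0.309) and Grn (-0.14, edgeR adjusted p = 0.193) were not called there. In P6 against P5, Fbln1, Mmp9 and Grn were called lower, and Ecm1 was not. The fibroblast marker sums were lowest in P6 and highest in P4, and their part was not tested.

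Of 16 matrix proteases and inhibitors tested, 5 rose in diaphragm and none fell, with a median log2 fold change of 0.73. Mmp19 averaged 55.9 ± 35.9 CPM in diaphragm and 9.15 ± 4.46 CPM in dura (log2 fold change 2.61 ± 0.37, edgeR adjusted p = 8.38e-05). Mmp12, the macrophage elastase, had 198.7, 208.2 and 158.0 CPM in diaphragm libraries 3, 6 and 9, 3.10 to 65.0 CPM in the other 4, and 0 to 40.2 CPM in dura (log2 fold change 2.85 ± 0.98, edgeR adjusted p = 0.0412). Adam8 was likewise highest in libraries 3, 6 and 9, at 158.0, 114.6 and 83.4 CPM (log2 fold change 2.26 ± 0.75, edgeR adjusted p = 0.034), and the collagenase Mmp13 had a log2 change of 0.94 ± 0.32 (edgeR adjusted p = 0.0383). The calls of Mmp12, Adam8 and Mmp13 were each lost in 8 or 9 of the 16 fits that left out 1 library (edgeR adjusted p up to 0.104), so that 2 to 5 genes of the list were called in those fits. Within dura Mmp12 rose in P6 against P4 by a log2 change of 6.93 (edgeR adjusted p = 6.46e-07) and Mmp19 fell (log2 fold change -1.62, edgeR adjusted p = 0.000182), while 6 genes of the list rose and 9 fell.

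Of 10 genes for collagen cross-linking and hydroxylation tested, 3 rose in diaphragm, with a median log2 fold change of 0.40. The hydroxylases Plod3 and P4ha1 had log2 fold changes of 0.49 ± 0.08 (edgeR adjusted p = 0.00027) and 0.42 ± 0.09 (edgeR adjusted p = 0.00208), and P4hb, which is shared with general protein folding, had 0.27 ± 0.07 (edgeR adjusted p = 0.00941). P4ha1 and P4hb were not called with library totals alone (edgeR adjusted p = 0.0623 and 0.161). P4hb was also not called with upper-quartile factors (edgeR adjusted p = 0.0537) or with dural libraries summed per number (edgeR adjusted p = 0.111). Without diaphragm libraries 1 and 7, 3 genes of this list were called lower in diaphragm. Of 15 genes of retinoid metabolism and receptors tested, a group listed because retinoic acid is known to induce Tgm2, 4 rose, with a median log2 fold change of 0.56. The receptor Rara averaged 75.1 ± 11.7 CPM in diaphragm and 37.2 ± 8.81 CPM in dura (log2 fold change 1.01 ± 0.15, edgeR adjusted p = 8.8e-05). Rarb (1.97 ± 0.46, edgeR adjusted p = 0.00463) and Rarg (0.53 ± 0.12, edgeR adjusted p = 0.00299) also rose, Rarg not with dural libraries summed per number (edgeR adjusted p = 0.114). The retinoic acid hydroxylase Cyp26b1 had 28.5 and 34.3 CPM in diaphragm libraries 1 and 7 and 0.611 to 4.16 CPM in the others, and its call (edgeR adjusted p = 0.0261) was lost without library 1 (edgeR adjusted p = 0.0695) or library 7 (edgeR adjusted p = 0.089). Without both of these libraries, 4 genes of the retinoid list were called lower in diaphragm.

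Around Gda, 19 genes of purine breakdown and salvage were tested, of which 3 rose and 2 fell in diaphragm, with a median log2 fold change of 0.17. Of the 3, Pnp2, a purine nucleoside phosphorylase, averaged 2.39 CPM in diaphragm and 0.849 CPM in dura, and its call (edgeR adjusted p = 0.0476) was lost in 19 of 26 alternatives, 12 of them fits that left out 1 library (edgeR adjusted p up to 0.286 over all). Impdh1, which feeds guanine nucleotide synthesis, averaged 47.3 ± 7.40 CPM in diaphragm and 22.1 ± 4.13 CPM in dura (log2 fold change 1.10 ± 0.13, edgeR adjusted p = 1.52e-05). Hprt, which salvages guanine, the base that Gda breaks down, averaged 164.1 ± 14.1 CPM in diaphragm and 253.1 ± 31.5 CPM in dura (log2 fold change -0.62 ± 0.09, edgeR adjusted p = 7.31e-05), with no overlap between tissues. Nt5c2, a nucleotidase, fell by a log2 change of -0.38 ± 0.11 (edgeR adjusted p = 0.0198). This call was lost without diaphragm libraries 1 and 7 (edgeR adjusted p = 0.072) and with dural libraries summed per number (edgeR adjusted p = 0.0968). Xdh, whose product oxidises the xanthine that Gda makes, averaged 190.0 ± 61.2 CPM in diaphragm and 176.1 ± 31.2 CPM in dura (log2 fold change 0.11 ± 0.18, edgeR adjusted p = 0.684). Uox, urate oxidase, a liver enzyme in mice, averaged 3.04 CPM in diaphragm and had no counts in dura, having passed the filter through diaphragm alone. Against a floor of 3 counts over all dural libraries it was at least 130-fold higher, and the list's median was 0.17 also with Uox at that bound. Within dura, 6 genes of the list rose and 4 fell in P6 against P4.

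**Figure D4:**
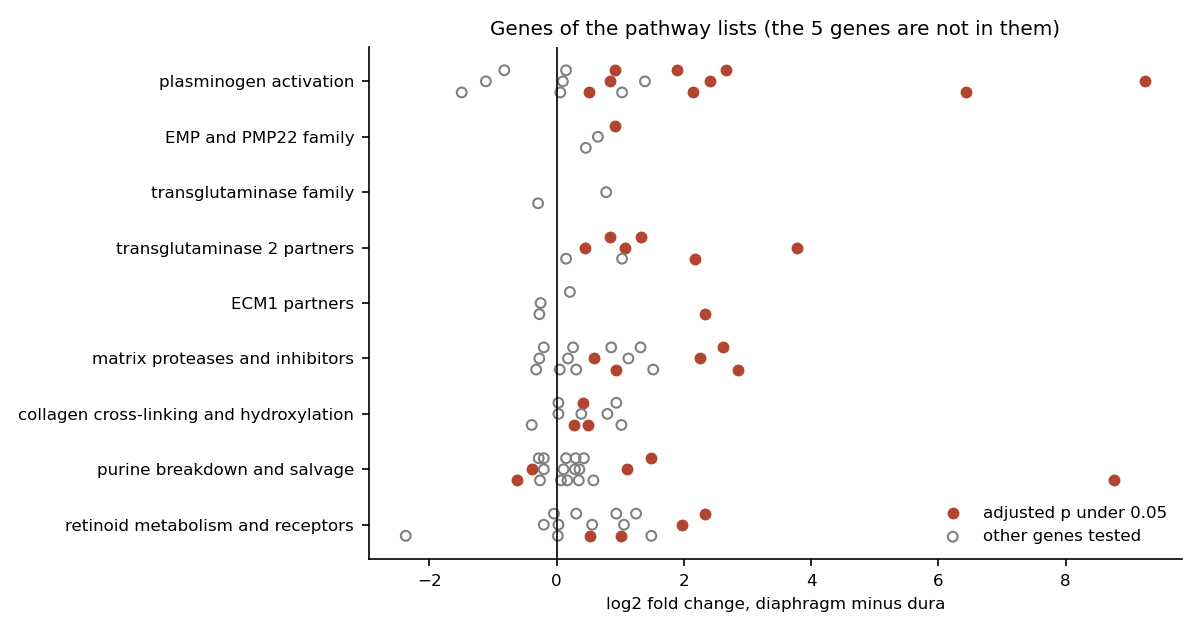
Log2 fold change of diaphragm over dura for each gene tested in the pathway lists, with genes at an adjusted p under 0.05 as filled points and the others as open points. The plasminogen activation and transglutaminase 2 partner lists hold 9 of 17 and 6 of 8 called genes, all to the right of 0. The 9 include Plg and Serpinb2, which passed the filter on low counts through diaphragm alone. The points beyond 8, Plg and Uox, have at most 1 count in all dural libraries together, so that their place on the axis depends on the fit.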

How the data were processed

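RNA of bulk-sorted macrophages was read as 75-nucleotide single-end reads from a kit that does not mark strand, per the labels' protocols. Per the submitters' processing notes, tools named without their role were featureCounts, STAR 2.4.0j and DESeq2 1.20.0, with build GRCm38. The authors deposited counts, all whole numbers, for 41388 genes in 24 columns. The table was read as raw counts because its values are whole and its totals differ widely, although its name speaks of normalised counts. Column names give the tissue and, for dura, a number and a mark.

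Each of 6 prefixed diaphragm columns matched the column of its number within sampling noise (chi-square over degrees of freedom 1.008 to 1.169, against at least 10.559 for other pairs of the same tissue), was read as a repeat run and summed. The 2 columns with 1496 and 2115 counts were left out. The libraries held 11053351 to 30132295 counts in diaphragm and 10457920 to 24077834 in dura.

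Tests used edgeR 4.0.16 in R 4.3.3 (quasi-likelihood, two-sided, TMM factors, filterByExpr, Benjamini-Hochberg adjustment, threshold 0.05). The mark fit used the 9 dural libraries, and the tissue fit all 16 libraries with tissue as its only term. The tissue fit took no account of the marks or of differences among the diaphragm libraries, which count there as spread within a tissue. CPM use TMM factors, and exon lengths are unions of GENCODE M21 exons. Both fits were tested on simulated counts. Of genes given a log2 change of 1, 46.9% were recovered in P6 against P4 and 53.5% in diaphragm against dura. At a log2 change of 2 these shares were 86.6% and 76.8%, and 8 unchanged genes were called in each fit. A gene that was not called may thus still differ. The simulation changed a far smaller share of genes than was called in the data. It held no pairing by number and no sets of diaphragm libraries, so the recovered shares may not hold for the real fits. Alternatives were other scalings, filters, DESeq2 1.42.0, limma-voom (limma 3.58.1), a block for library number, libraries left out and dural libraries summed per number.

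The genes, lists and tests were chosen with earlier results of these data known. Genes named from each list were up to 4 called ones, by fold change, that reached a mean of 5 CPM in the higher tissue, and the 3 nearest genes by correlation needed 20 CPM. Other genes named from the lists were picked with their values in view. A few genes taken by these rules are left out of the text. Of the 22 purine genes listed, 21 were found by symbol. The dural libraries of a number may share a source. The p-values of diaphragm against dura, which count these libraries as separate, may then be too small. Those of the main mark fit ignore any such pairing. With the number as a block, 794 genes were called higher in P5 than in P4, against 409 without it.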

Additional observations from a re-analysis of the deposited data

How the results depend on the processing

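Over 26 alternatives, the log2 fold change of diaphragm over dura ranged from 4.32 to 4.78 for Emp1, 3.69 to 4.08 for Ecm1, 3.29 to 3.86 for Plaur, 3.16 to 3.52 for Tgm2 and 3.17 to 3.77 for Gda. In dura, the calls of Plaur and Gda in P6 against P4 and P6 against P5, and of Ecm1 in P6 against P4 and P5 against P4, kept their direction and stayed past the threshold under every alternative run.

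With library totals alone, the median of all genes moved to -0.12 (diaphragm against dura), -0.14 (P6 against P4) and -0.13 (P5 against P4), 231 genes were called higher in P5 than in P4 (409 in edgeR with TMM) and 2350 lower in diaphragm (1465 with TMM). With no filter on low counts, 702 genes were called higher and 885 lower in P5 against P4 (409 and 564 with the filter), and the log2 fold changes that gained a call were -0.63 for Emp1 and 0.89 for Plaur in P5 against P4 and 0.55 for Tgm2 in P6 against P5. DESeq2 called 629 genes higher in P5 than in P4, with Plaur at 0.87. With dural libraries summed per number, 813 genes were called higher and 446 lower in diaphragm, where 2007 and 1465 were called with all 9. The cause was not tested.

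Leaving out 1 library gave 219 to 441 genes higher and 285 to 695 lower in P5 against P4, and 692 to 1258 higher and 775 to 1245 lower in P6 against P5. It gave log2 fold changes of 0.76 to 1.2 for Emp1 in P6 against P5, -0.91 to -0.46 for Emp1 and 0.67 to 1.08 for Plaur in P5 against P4. For Tgm2 in P5 against P4 it gave -0.42 to 0.11, positive without 4P5 (0.07) and without 3P4 (0.11), and never called.

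Dural libraries of the same number correlated at -0.005 to 0.171 in their deviations from the mark means, with 4 of 9 pairs above 0.1. Pairs of different numbers correlated at -0.176 to 0.132, with 1 of 18 above 0.1. The main mark fit left the number out, so a source shared by libraries of the same number was not modelled there. With the number as a replicate block, 794 genes were called higher in P5 than in P4 and Plaur stood at 0.86 there. Of 9 dural libraries, 8 correlated best with one of their own number. Every level of the 5 genes rests on at least 96 counts in a library, whereas 2 of 8 other transglutaminase genes had enough counts to be tested.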
